A study of Mus musculus with 16 samples.

Results

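Double-positive (DP) thymocytes, the cells of the thymus that carry both CD4 and CD8, were compared between mice that lost Tox4 in the T cell lineage and their controls. The comparison takes in all 24984 genes of the deposited table of fragment counts, which is also the number of genes in the whole series, over 3 conditional knockout (cKO) and 3 control samples. The controls, labelled Tox4 WT, had the genotype Tox4;F/F, a floxed Tox4 allele with no Cre. The cKO samples had the genotype Tox4;F/F;Lck+, in which a Cre under the proximal Lck promoter acts from the double-negative 3 stage and removes exons 4 to 6. Both groups therefore carry the floxed allele, and Cre is present in the cKO samples alone, so effects of Cre and of Tox4 loss cannot be told apart in this design. The study made the floxed allele with CRISPR in C57BL/6 mice and used littermates of the same sex, 6 to 8 weeks old, with DP cells sorted as CD4+CD8+ to a purity over 95%. PolyA RNA was made into strand-specific libraries with 15 cycles of PCR, and the counting used strand, so fragments of an antisense gene are not counted on its partner. Each sample is called here by its group and replicate number, and cKO and control samples of 1 number form a pair, although neither the labels nor the methods say that the number marks a litter.

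DP thymocytes rearrange the genes of the T cell receptor alpha chain and then wait for a signal from the receptor. A signal of the right strength starts positive selection, in which the cell switches on a set of early response genes and begins to express the receptors and survival factors of a mature single-positive cell. TOX4 is an HMG-box protein that joins PNUTS, WDR82 and the PP1 phosphatase in a complex that acts on RNA polymerase II, a complex known for its part in the slowing and termination of transcription. The comparison asks which mRNAs of DP cells depend on Tox4.

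Between 14583336 and 25981683 fragments per sample were counted on genes, with the lowest total in cKO replicate 2 and the highest in cKO replicate 3. Counts were scaled to library size by edgeR's TMM method and are given as CPM, counts relative to the scaled total. Levels compared between genes are given as TPM, which also divides by exonic length. Of the 24984 genes, 8087 had no count in any of the 6 samples, 13236 had too few counts to be tested, 11748 were tested and 11187 of these had a mean TPM of at least 1.

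Tox4 (mm10 chromosome 14, 52279146 to 52295509) had 154, 172 and 180 CPM in control replicates 1 to 3 and 133, 141 and 131 CPM in the cKO samples of the same numbers. Every cKO sample lay below every control sample. The log2 fold change was -0.32 (standard error 0.0921, edgeR adjusted p = 0.138), and the gene did not pass the threshold. Exons 4 to 6 make up only 16.5% of the Tox4 exon length, so a count over the whole gene is a weak check of their removal.

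The DP label was checked against 16 genes of DP identity. Their summed TPM was 19956, 16102 and 17261 in the control samples and 17562, 15173 and 14519 in the cKO samples, with Rag1, a subunit of the recombinase, the most abundant (2556 to 4269 TPM). All 16 had a mean TPM of at least 1. None was called by edgeR, or by DESeq2 with or without the pairs, 4 were lower at an unadjusted p under 0.05, and 15 had a 95% interval within 1.5-fold. Of all 11187 genes tested at this level, 925 were higher (8.27%) and 935 lower (8.36%) at an unadjusted p under 0.05, together 16.6%, the share beside which such counts are to be read below. The 7 erythroid markers summed to at most 0.680 TPM per sample, and 4 globin genes among them had no count. Foxn1 of thymic epithelium, Col3a1 and Dcn of stroma and Klra8 and Klra4 of NK cells were also at 0.

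A gene was called when its adjusted p was under 0.05 in edgeR's quasi-likelihood test with the pair as a block, its fold change at least 1.5 and its mean TPM at least 1. By this rule 74 genes rose, 0.661% of the 11187 at that level, and 57 fell, 0.510%. Of these, 34 rose and 21 fell by over 2-fold. All 131 moved in the same direction in all 3 pairs. Groups did not overlap for 66 of the 74 rising genes, where 7.86% of all genes tested had every cKO sample above every control sample, and for 54 of the 57 falling genes, where 7.25% had every cKO sample below. The calling used the same values, so these shares are a description of the called genes.

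The numbers depend on the pairing and on the pairs used. Without the pair in the model edgeR called 10 rising and 7 falling genes, all of them among the 131. Without replicate 1 the numbers were 11 DP genes rising and 4 DP genes falling by the paired test, and without replicate 2 they were 419 and 180. In those fits the log2 fold change kept its sign for all 74 rising and all 57 falling genes. This was all but fixed in advance, since each of them moved the same way in all 3 pairs. Genes called with the pairs, without them and with each pair left out in turn were Casc1, Ntrk3, Nwd1, Fbxl22, Eno3, Tspoap1 and Myc among the rising, and Cd53, Gimap3 and Gimap4 among the falling. Ntrk3 and Nwd1 are named here after their values were seen.

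Most of the expressed genes were stable within a stated bound. For 7364 genes, 65.8% of the 11187, the whole 95% interval of the fold change lay within 1.5-fold in either direction, and such genes are called held. Another 3692 genes were neither called nor held. Precision followed the level, since the share held was 14.0% among the 2600 genes at 1 to 10 TPM, 77.6% among the 6331 genes at 10 to 100 TPM and 92.4% among the 2256 genes at 100 TPM or more. Among the 100 most abundant genes 96 were held and none was called. Their log2 fold changes ran from -0.45 for Cd8a to 0.39.

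**Figure D1:**
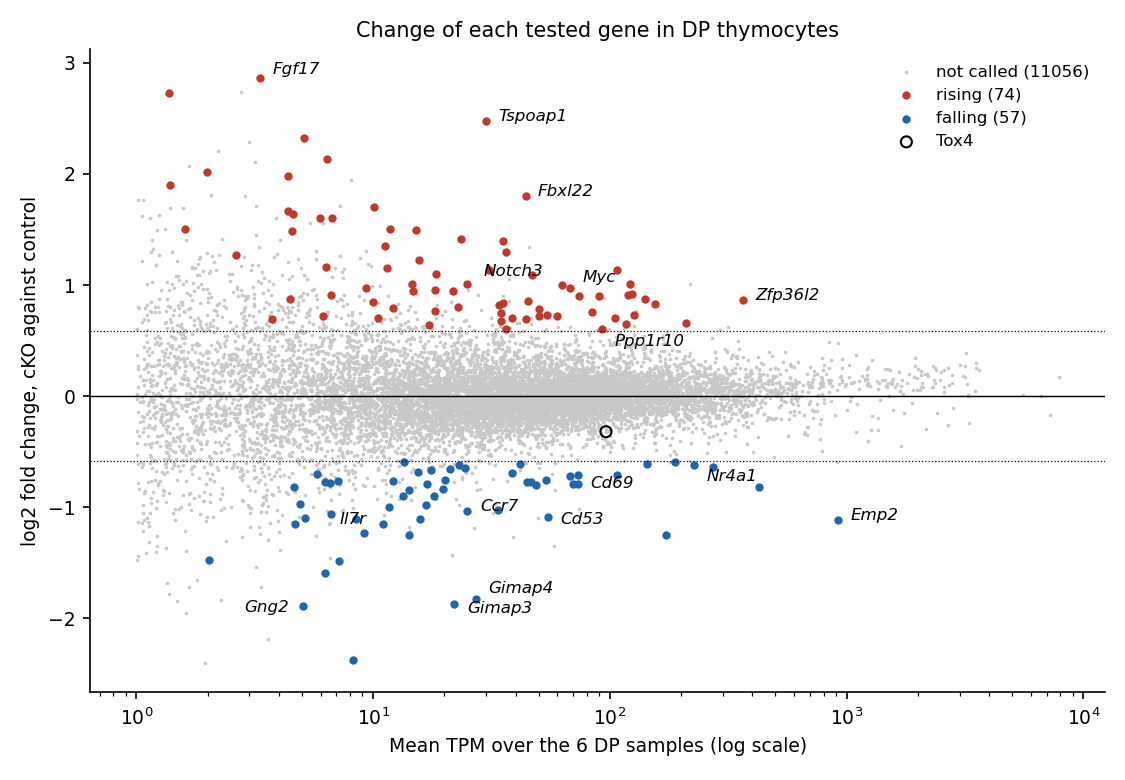
Log2 fold change of each tested gene (vertical axis, cKO against control, 3 pairs) against its mean TPM over the 6 DP samples (log axis). Red points rose (74 genes) and blue points fell (57 genes) at an adjusted p under 0.05 and at least 1.5-fold, the dotted lines mark 1.5-fold, and the circle is Tox4 at -0.32. Called genes are spread over levels up to 921 TPM (Emp2), and the most abundant genes lie near 0.

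Some early response genes of positive selection fell in cKO cells. Of 22 listed genes 6 fell, none rose and 8 were held, among them Id3, Gata3 and Ikzf2 with values above 0, and the median log2 fold change was -0.52, with -0.56, -0.44 and -0.31 in pairs 1 to 3, beside a median of -0.00 over all genes tested. The 6 were Nr4a1 and Nr4a3, which encode orphan nuclear receptors, Egr1, a zinc finger transcription factor, Nab2, a corepressor of EGR proteins, Cd69, a surface protein of newly activated T cells, and Itm2a, a membrane protein known for its induction in selected thymocytes. Cd69 had 57.5, 45.4 and 53.2 CPM in control replicates 1 to 3 and 35.6, 31.8 and 28 CPM in the cKO samples. The groups did not overlap, and the log2 fold change was -0.71 (standard error 0.115, edgeR adjusted p = 0.0235). Nr4a1 had 166, 258 and 299 CPM in control samples and 107, 185 and 180 CPM in cKO samples. Here the groups overlapped, since cKO replicates 2 and 3 lay above control replicate 1, while each cKO sample was below its own control (log2 fold change -0.62, standard error 0.0889, edgeR adjusted p = 0.0159). Nr4a3 went from 51.4, 54.7 and 44.5 CPM to 24.1, 28 and 32.4 CPM, a log2 fold change of -0.84, with no overlap. Egr1, Itm2a and Nab2 had log2 fold changes of -0.61, -0.64 and -0.72, each with every cKO sample below every control sample. The most abundant genes of the list were the surface proteins Cd6 and Cd5, which damp receptor signalling. Both were held, at -0.16 and -0.37. The largest log2 difference was that of Cd83, a surface protein of selected thymocytes, at -1.47 on about 1 CPM, not called.

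None of these 6 calls was made without the pair in the model, where the edgeR adjusted p ran from 0.107 for Nr4a3 to 0.496 for Nr4a1, and none was made without replicate 1. DESeq2 called all 6 with the pairs, and also Egr2 and Rel as falling. Without the pairs it called Cd69, Nr4a3 and Itm2a. At an unadjusted p under 0.05, 14 of the 22 listed genes were lower, beside 8.36% of all genes, and none higher. In bulk RNA, fewer cells of a type in a sample and less RNA per cell cannot be told apart, so a lower level may come from fewer signalled cells in the sort or from a weaker response of each.

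The promoters of Nr4a1 and Nr4a3 are shown because these receptors fell together and both hold several copies of TGACG, the core of the cAMP response element bound by CREB and ATF factors. The motif was chosen after the sequences were seen. Each run is the 250 bases before the gene's start, from RefSeq on GRCm38.p6, written 5′ to 3′ on the gene's strand, with matches to TGACG or its reverse complement CGTCA in capitals. Nr4a1 lies on the plus strand at chr15:101266596-101266845 and Nr4a3 on the plus strand at chr4:48045055-48045304.
Nr4a1: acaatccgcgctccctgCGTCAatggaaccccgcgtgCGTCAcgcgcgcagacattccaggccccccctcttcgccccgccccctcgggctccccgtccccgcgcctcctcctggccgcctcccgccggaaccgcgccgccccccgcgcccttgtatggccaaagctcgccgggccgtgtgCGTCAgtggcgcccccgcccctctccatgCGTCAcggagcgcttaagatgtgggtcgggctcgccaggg
Nr4a3: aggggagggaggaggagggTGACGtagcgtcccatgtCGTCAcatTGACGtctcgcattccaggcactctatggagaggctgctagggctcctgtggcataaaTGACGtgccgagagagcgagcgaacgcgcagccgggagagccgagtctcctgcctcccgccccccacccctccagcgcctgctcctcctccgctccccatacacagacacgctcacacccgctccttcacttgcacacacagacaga
Each promoter holds 4 matches. At least 3 matches were found in 226 of the 32851 mouse promoters of this table, 0.688%, and in 1.59% of the promoters of expressed genes. Itm2a had 1 match and Nab2 none, while Cd69 and Egr1 are not in the table. At least 1 match was found in 19.0% of the promoters of falling genes, 18.7% of those of rising genes and 27.9% of those of expressed genes, so the motif was not more frequent among the called genes as a whole. A match is a run of letters and not a measured binding site.

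Lists that share regulation with the receptor response held few calls, and their medians differed between pairs. Among 20 immediate early genes Egr1 fell and Zfp36l2 rose, and the median was -0.35, with -0.20, -0.31 and -0.62 in pairs 1 to 3. At an unadjusted p under 0.05, 8 of these genes were lower (8.36% of all genes) and 1 higher. DESeq2 with the pairs also called Fosb among them as falling. Their most abundant member Zfp36, which encodes an mRNA decay factor, stood at -0.55 (edgeR adjusted p = 0.03), short of 1.5-fold. Batf, a partner of JUN proteins, had the largest difference at -0.94, not called. The 17 genes of NF-kB subunits and inhibitors had a median of -0.17 with 9 held and no call by edgeR, 7 lower at an unadjusted p under 0.05 (8.36% of all genes), and 1 fall, of Rel, by DESeq2 with the pairs. The inhibitor gene Nfkbia, the most abundant, stood at -0.39 and Bcl3 at -0.65 with overlapping groups. The 15 feedback genes of the MAPK pathway had a median of -0.21, or -0.18, 0.09 and -0.56 by pair, with no edgeR call, 5 lower and 1 higher at an unadjusted p under 0.05. Their largest difference was that of Dusp2, a nuclear phosphatase of MAP kinases, at -0.58 (edgeR adjusted p = 0.0263), just under 1.5-fold. DESeq2 called Dusp2 with the pairs. Dusp5, the most abundant of them, stood at -0.42 with overlapping groups. These levels also differed strongly between replicates of 1 genotype: Tnfaip3, an inhibitor of NF-kB, had 228, 1392 and 2034 CPM in controls and 260, 1664 and 1365 CPM in cKO samples. Replicate 1 was the low one in both groups for Tnfaip3, and its log2 fold change was -0.04.

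Some genes of maturing single-positive cells fell as well. Of 16 such genes 4 fell, none rose, 4 were held and the median was -0.42. At an unadjusted p under 0.05, 9 were lower and 2 higher, Emp3 at 0.41 and Ms4a6b at 0.25. Their summed TPM was 2856, 2332 and 2353 in control samples and 2087, 1965 and 1965 in cKO samples, so the groups did not overlap. Ccr7, the chemokine receptor that guides cells into the medulla, had 31.8, 21.0 and 17.3 CPM in controls and 11.6, 11.7 and 10.2 CPM in cKO samples, or -1.03 on the log2 scale (standard error 0.168, adjusted p = 0.024 by edgeR). Il7r, the alpha chain of the interleukin 7 receptor, had 22.9, 17.5 and 12.1 CPM in controls and 11.9, 8.47 and 5.93 CPM in cKO samples, or -1.0 on the log2 scale (standard error 0.148, adjusted p = 0.0166 by edgeR). In both genes every cKO sample was below every control sample. Bcl2, which encodes a survival protein, fell by 0.67 on the log2 scale and Slfn1, a Schlafen gene, by 1.48. Without the pairs none of these 4 was called by edgeR, while DESeq2 without the pairs called Ccr7, Bcl2 and Slfn1. Without replicate 1 none of the 4 was called. The most abundant genes of the list, Cd52 and Dgka, stood at -0.49 and -0.28, and neither was called.

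The Gimap GTPases, a cluster of genes on chromosome 6 known for a role in lymphocyte survival, held some of the largest falls. Of 8 genes 3 fell, none rose, 3 were held and the median was -0.60. Gimap3 had 27.8, 30.7 and 20 CPM in controls and 7.62, 6.15 and 7.23 CPM in cKO samples, or -1.87 on the log2 scale (standard error 0.181, adjusted p = 0.00519 by edgeR). Gimap4 went from 32.7, 28.8 and 19.4 CPM to 7.10, 6.42 and 8.80 CPM, a log2 fold change of -1.82, and Gimap8 fell by 0.79. The cKO samples of all 3 genes lay below all controls. Gimap3 and Gimap4 kept their calls without the pairs and without replicate 1, and Gimap8 kept neither. At an unadjusted p under 0.05 6 of the 8 were lower, beside 8.36% of all genes, and none higher. Gimap6, the most abundant, stood at -0.43 (edgeR adjusted p = 0.0445) without reaching 1.5-fold, and Gimap1 was held at 0.23. The family's genes are alike in sequence, so their counts are uncertain where fragments fit several copies.

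Lists of receptors and of migration and adhesion held 1 call each. More of their genes were lower at an unadjusted p under 0.05, beside 8.36% of all genes. These were 4 of 13 chemokine receptor and egress genes, 11 of 30 cytokine genes and 6 of 17 integrin and adhesion genes. In the same order 1, 1 and 0 were higher. Among 13 chemokine receptors and egress genes only Ccr7 was called, and the median was -0.34. Ccr9, the most abundant, was held at -0.25, and so was Plxnd1 at 0.03. Cxcr3 had the largest difference, -1.68 on at most 2.02 CPM, and was not called. DESeq2 with the pairs also called Ccr4 as falling. Among 30 cytokine receptors and JAK, STAT and SOCS genes only Il7r was called, 21 were held and the median was -0.10. The most abundant, Il2rg and Ifngr1, were held at -0.20 and 0.27, and Il6ra had the largest difference at -1.84. DESeq2 with the pairs also called Il2rb and Il6ra as falling. Of 17 integrin and adhesion genes only Cd53, a tetraspanin of leukocytes, was called. It had 83.8, 75.9 and 61.1 CPM in controls and 36.2, 36.8 and 30.2 CPM in cKO samples, or -1.09 on the log2 scale (standard error 0.101, adjusted p = 0.00519 by edgeR). Its groups did not overlap. The abundant Itgal and Tln1, an integrin chain and its cytoskeletal anchor, were held at -0.04 and 0.12, and Itgae stood at -1.13 without a call by edgeR. DESeq2 called Itgae and Itgb3 as falling with and without the pairs.

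Genes of signalling to the cytoskeleton fell too. Gng2, a gamma subunit of heterotrimeric G proteins, went from 14.5, 10.2 and 8.79 CPM to 2.68, 3.08 and 3.14 CPM, or -1.89 on the log2 scale (standard error 0.237, adjusted p = 0.0104 by edgeR). Rhof, a small GTPase of filopodia, fell by 1.03 and Dock2, an activator of Rac in lymphocyte movement, by 0.59 on the log2 scale. In Gng2, Rhof and Dock2 no cKO sample reached a control sample. Gng2 and Rhof kept the call without the pairs and lost it without replicate 1. Dock2 was the most abundant of the 3 (189 mean TPM) and lost its call without the pairs, without replicate 1, without replicate 3 and with upper-quartile scaling.

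Other falling genes belong to various functions. Tmem126a, a mitochondrial membrane protein, had the largest fall, from 3.34, 4.85 and 3.13 CPM to 0.376, 0.820 and 0.982 CPM, or -2.37 on the log2 scale (standard error 0.385, adjusted p = 0.0236 by edgeR). Its groups did not overlap. The rest of the 12 largest falls, beside Gng2, Gimap3, Gimap4 and Slfn1, were Drc1 of the dynein regulatory complex (-1.59), Vipr1, a receptor for vasoactive intestinal peptide (-1.47), Esrp2, a splicing regulator (-1.25), Fasl, the ligand of the death receptor Fas (-1.25), Pea15a (-1.24), Retreg1, a receptor for turnover of the endoplasmic reticulum (-1.15), and the transcript C920009B18Rik (-1.15). Zbtb7b, which encodes the CD4 lineage factor ThPOK, fell from 19.1, 11.9 and 14.5 CPM to 6.82, 7.04 and 7.66 CPM, a log2 fold change of -1.06. Ccnd2, a D-type cyclin, fell by 1.11, Samhd1, a dNTP hydrolase, by 0.90, Trim30a by 0.65 and Maml2, a Notch coactivator, by 0.59. Without the pairs or without replicate 1 none of Zbtb7b, Ccnd2, Samhd1, Trim30a and Maml2 was called by edgeR. Icos (-0.98) and Bach2 (-0.68), a costimulatory receptor and a transcriptional repressor of lymphocytes, also fell and are named after their values were seen.

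Fasl is an example of a gene whose level varied more between pairs than between genotypes. It had 103, 283 and 72.1 CPM in control replicates 1 to 3 and 38.7, 193 and 20.3 CPM in cKO samples. Pair 2 was high in both genotypes, the groups overlapped, and without the pairs the edgeR adjusted p was 0.813. Emp2, an epithelial membrane protein named after its values were seen, had the same order, with 897, 2624 and 652 CPM in controls and 385, 1976 and 198 CPM in cKO samples. Its log2 fold change was -1.12, and DESeq2 did not call it with or without the pairs.

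Marker genes of other cells moved in part with these falls. The summed TPM of 12 myeloid markers was 101, 184 and 86.2 in controls and 73.9, 76.5 and 88.0 in cKO samples. Of the 10 tested, 7 had a log2 fold change below 0 and 3 above. Cd68 had the highest mean TPM of the list (23.3) but led no control sample. It was higher in every cKO sample than in every control sample, at 0.62. Lyz2 stood at -1.43 and led in control replicate 2, with 58.3 TPM. The summed TPM of 10 dendritic cell markers was 145, 289 and 119 in controls against 60.5, 89.7 and 109 in cKO samples, led by Cd74. Control replicate 2 was the highest sample for both lists. None of these markers was called by edgeR, while DESeq2 with the pairs called Lyz2, Ctss and H2-Aa as falling, and 5 myeloid and 3 dendritic markers were lower and 1 myeloid marker higher at an unadjusted p under 0.05. H2-Ab1, an MHC class II chain, stood at -0.84. The 16 markers of cytotoxic and memory-like T cells summed to 302, 561 and 188 TPM in controls and 214, 426 and 148 TPM in cKO samples, with Fasl at 161, 405 and 104 TPM in controls and 58.2, 281 and 27.7 TPM in cKO samples. Of 9 B cell markers 8 are in the table, led by Cd79b at -0.13, and they summed to 43.6 to 67.6 TPM in controls and 49.2 to 50.3 TPM in cKO samples, the 7 regulatory T cell markers to 152 to 199 and 163 to 172 TPM, and the 14 gamma-delta and innate-like markers, of which 10 are in the table, to 28.3 to 37.3 and 24.7 to 30.6 TPM. The 8 NK cell markers, led by Gzma, summed to 95.1, 100 and 48.5 TPM in controls and 138, 123 and 89.9 TPM in cKO samples. The higher sum came from Gzma, at 78.0, 78.5 and 36.8 TPM in controls and 127, 108 and 75.1 TPM in cKO samples, while Tyrobp stood at -0.48. The 9 thymic epithelial markers, led by Epcam, summed to 12.6 to 17.2 TPM, and the 8 stromal and endothelial markers, nearly all from Pecam1, to 120 to 137 TPM. The part that such cells have in the falling genes was not tested.

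**Figure D2:**
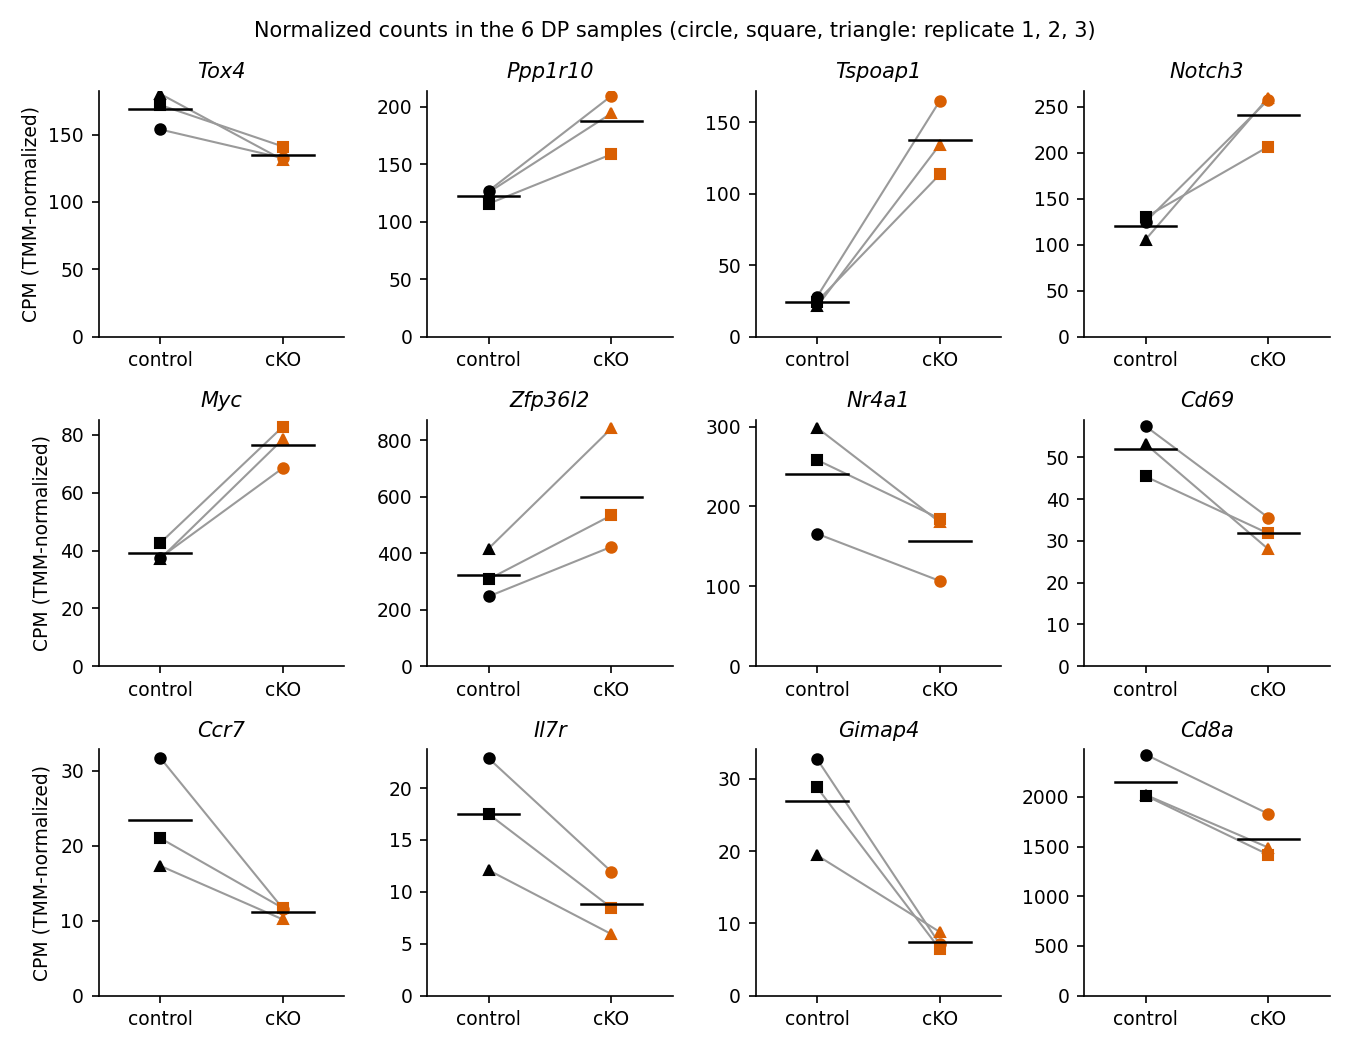
Normalized counts (CPM, vertical axes from 0) of 12 genes in the 3 control and 3 cKO samples of DP cells. Lines join samples of 1 replicate number (circle 1, square 2, triangle 3) and bars are group means. Every line falls for Tox4, Nr4a1, Cd69, Ccr7, Il7r, Gimap4 and Cd8a, and every line rises for Ppp1r10, Tspoap1, Notch3, Myc and Zfp36l2.

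Both called groups lay below the level of all genes. The median TPM of the 74 was 14.5 in control and 30.8 in cKO samples, that of the 57 falling genes 23.6 and 12.1, and that of all genes tested 34.3 and 33.6. Choosing genes for their rise by itself favours a low control level. Of the 74, 8 belong to any of the 52 gene lists examined, 10.8%, beside 9.05% of all genes tested and 23 of the 57 falling genes, 40.4%. The largest rises were those of Fgf17, a fibroblast growth factor (log2 fold change 2.86), Espnl, an espin-like actin bundler (2.72), and Tspoap1, which encodes a partner of the TSPO protein (2.48). Tspoap1 had 27.9, 24.5 and 21.2 CPM in controls and 165, 114 and 134 CPM in cKO samples (standard error 0.121, edgeR adjusted p = 6.58e-05). The lowest cKO sample was far above the highest control. The rest of the 12 largest rises were Gnb3, a G protein beta subunit (2.32), Casc1 (2.13), the zinc finger gene Zfp651 (2.02), the lectin gene Lman1l (1.98), the transcriptional repressor Hic1 (1.90), the F-box gene Fbxl22 (1.80), the oocyte nucleoplasmin Npm2 (1.70), Prob1 (1.67) and Lrrc24 (1.64). Their groups did not overlap, with the exception of Gnb3, whose values of 0.117, 1.58 and 1.77 CPM in controls and 1.08, 9.84 and 6.17 CPM in cKO samples rose within each pair. Lrrc24 overlaps the transcript C030006K11Rik on the same strand, so the counts of both are uncertain.

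The position of the genes, which the calling did not use, differed between the groups. For 39 of the 74, 52.7%, an expressed gene on the same strand ended within 10 kb upstream of the gene's start. This held for 9 of the 57 falling genes, 15.8%, and for 2108 of all 11187 genes, 18.8%. Within 5 kb the shares were 36.5%, 7.02% and 11.8%, and within 20 kb they were 59.5%, 24.6% and 27.4%. Another 3 rising genes, Mpp4, Lrrc24 and Tm7sf2, overlapped such a gene on the same strand, 4.05% beside 1.53% of all genes and none of the falling. Mpp4 and Tm7sf2 are named after their values were seen. Of the 39 neighbours 31 were held and 8 were not, and among the latter Dmpk and Fdx1l stood at 1.34 and 1.31 without a call. Of the 39 neighbours 2 rose, Npm2 upstream of Fgf17 and P3h3, named after its values were seen, upstream of Gnb3, and the median log2 fold change of the 39 was 0.12.

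Single cases show the arrangement. Fbxl22 starts 46 bases after the end of Usp3, which encodes a ubiquitin protease and stood at 0.27, and rose from 18.9, 28.4 and 37.0 CPM to 103, 91.6 and 91.8 CPM. Espnl starts 995 bases after Scly, which stood at 0.23, Lman1l 5872 bases after the kinase gene Csk at 0.04, and Zfp651 3192 bases after Nktr at -0.04. None of these upstream genes was called. Genes of the rising group were also shorter, with a median span of 13980 bases beside 20486 for all genes and 27866 for the falling group, while their median exonic length of 3224 bases lay between those of all genes (2958) and of the falling group (3788). Whether transcription runs on from the upstream gene was not tested, since fragments between genes are not in the table.

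**Figure D3:**
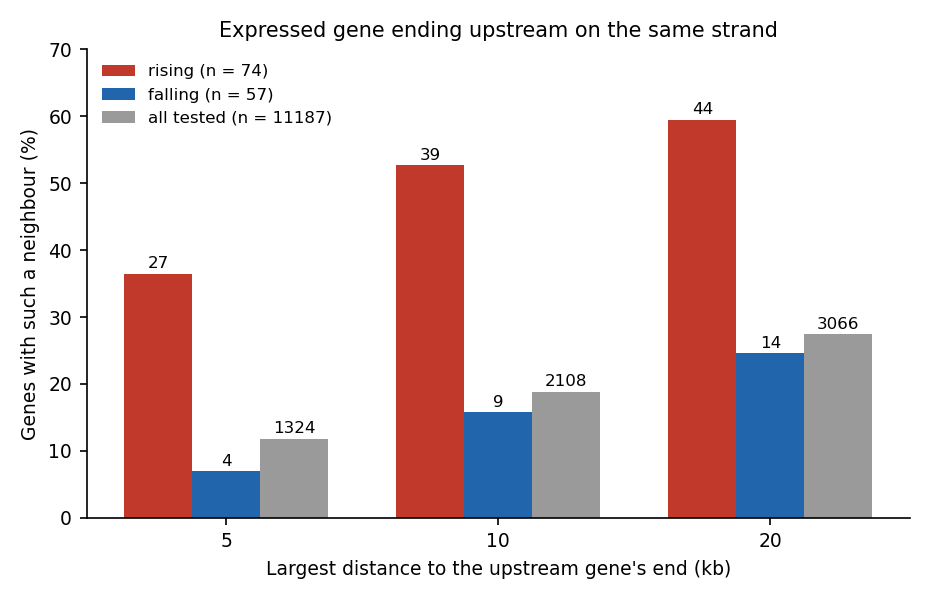
Share of genes (vertical axis, percent) with an expressed gene on the same strand that ends within 5, 10 or 20 kb upstream of their start (horizontal axis), for the 74 rising genes, the 57 falling genes and all 11187 genes tested with a mean TPM of at least 1. Numbers over the bars are genes, and at 10 kb the shares are 52.7%, 15.8% and 18.8%.

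Some abundant regulators rose without such a neighbour within 10 kb. Notch3, a receptor of the Notch family known in early thymocytes, had 125, 130 and 105 CPM in controls and 257, 206 and 260 CPM in cKO samples, or 1.01 on the log2 scale (standard error 0.121, adjusted p = 0.00836 by edgeR). Myc, the growth factor-responsive transcription factor, had 37.5, 42.6 and 37.1 CPM in controls and 68.6, 82.9 and 78.5 CPM in cKO samples, or 0.97 on the log2 scale (standard error 0.10, adjusted p = 0.0055 by edgeR). In both genes all cKO samples were well above all controls. Without the pairs both kept the call, and without replicate 1 only Myc did. Of the 20 Notch pathway genes tested Notch3 and Myc rose, Maml2 fell and 10 were held, with a median of 0.00 that lay on either side of 0 between scalings. Notch1 stood at 0.54 (edgeR adjusted p = 0.0716) with no overlap between groups, Hes6 was held at 0.11, and the ligand gene Jag2, named after its values were seen, rose by 1.01. Unlike Notch3 and Myc, Jag2 has such a neighbour, Nudt14, which ends 4796 bases upstream. Of 15 markers of early thymocytes 10 were tested and Notch3 alone was called. Their summed TPM was 304, 277 and 211 in controls and 419, 298 and 357 in cKO samples, so that control replicate 1 lay above cKO replicate 2. Notch1 was the most abundant in every sample, and Ptcra, the pre-receptor alpha chain, stood at 0.30 with overlapping groups. Other markers of this stage lay lower in every cKO sample, with the receptor genes Kit at -0.97 and Il2ra at -0.68, neither called. The list median of 0.06 was below 0 without the pairs and without replicate 3.

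Zfp36l2, which encodes a protein that promotes decay of AU-rich mRNAs and limits proliferation of thymocytes, was the most abundant rising gene (364 mean TPM). It had 247, 308 and 416 CPM in controls and 422, 533 and 841 CPM in cKO samples, or 0.86 on the log2 scale (standard error 0.0854, adjusted p = 0.00519 by edgeR). The lowest cKO sample was only just above the highest control, and the rise was seen within each pair. Without the pairs the edgeR adjusted p was 0.311, while DESeq2 called the gene with and without them. The gene Thada ends 2109 bases upstream of it, at -0.15. Ppp1r10, which encodes PNUTS, the targeting subunit of the complex that TOX4 joins, had 127, 116 and 125 CPM in controls and 209, 159 and 194 CPM in cKO samples. No sample overlapped, and the log2 fold change was 0.60 (standard error 0.0932, edgeR adjusted p = 0.0192; 0.131 without the pairs). Without replicate 1 it was not called, and DESeq2 called it with and without the pairs. It was the 1 called gene among 9 of the complex and the TOX family, of which 7 were held, Tox4 itself among them. Of the 9, 5 lay above 0 and 4 below. At an unadjusted p under 0.05, 3 were lower (8.36% of all genes) and 1 higher. The phosphatase genes Ppp1ca and Ppp1cc, the most abundant, were both held at 0.04. The phosphatase gene Ppp1cb and the family member Tox were held too, both at -0.31.

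Few other listed genes rose. Bbc3, which encodes the death protein PUMA, had 18.1, 25.8 and 45.0 CPM in controls and 36.2, 44.9 and 60.4 CPM in cKO samples, a rise within each pair of overlapping groups (log2 fold change 0.73, standard error 0.13, edgeR adjusted p = 0.0339). It was the 1 call among 27 p53 pathway genes, of which 16 were held. At an unadjusted p under 0.05, 7 of the 27 were higher (8.27% of all genes) and 3 lower (8.36%). Trp53inp1 and Btg2, the most abundant of these, stood at -0.28 and -0.51. Bbc3 and Bcl2 were the 2 calls among 16 genes of the Bcl2 family, with 5 higher and 3 lower at an unadjusted p under 0.05. Mcl1 and Bcl2l1, the most abundant survival genes of that family, were held at -0.35 and -0.04, and Bcl2a1d had the largest difference, -1.71, without a call. Gzma, a granzyme, rose by 0.76, and Eno3, the muscle form of enolase, by 1.30. Eno3 kept its call without the pairs and with each pair left out, while Bbc3 and Gzma were not called without the pairs or without replicate 1. None of the 20 death receptor and caspase genes was called by edgeR or DESeq2, 3 passed an unadjusted p of 0.05, beside 16.6% of all genes, and 17 were held, among them Casp2 at 0.05 and Tnfrsf1a at -0.06. Birc3, an inhibitor of apoptosis, stood at -0.47.

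Genes of cell division had higher fitted values in cKO samples in pairs 1 and 3 but not in pair 2. All 44 mitosis and cytokinesis genes had a log2 fold change above 0, with a median of 0.41, and so did 42 of 43 DNA replication genes, with a median of 0.30. Neither list held a gene called by edgeR, with 25 and 16 genes higher at an unadjusted p under 0.05 (8.27% of all genes), while DESeq2 with the pairs called Cenpf and Mki67 of the first and Pole of the second as rising. Without replicate 2 edgeR called 35 of the 44 mitosis genes and 11 of the 43 replication genes as rising, and the median for mitosis was 0.73, while without replicate 1 it called none. Without replicate 3, and with upper-quartile scaling, it called Mki67 as rising. The medians by pair were 0.71, -0.16 and 0.71 for mitosis and 0.46, -0.06 and 0.42 for replication, so pair 2 ran the other way. Top2a, the most abundant mitotic gene, shows it with 583, 680 and 404 CPM in controls and 886, 629 and 613 CPM in cKO samples. Its groups overlapped (log2 fold change 0.36, standard error 0.136, edgeR adjusted p = 0.224). Mcm7 of the replicative helicase stood at 0.37, Pcna at 0.13, Ube2c at 0.59, Ttk at 0.68 and Pole, the catalytic chain of a replicative polymerase, at 0.61. The 22 proliferation genes listed by the study had a median of 0.33 and no edgeR call, and 9 were higher at an unadjusted p under 0.05, with 10 calls as rising without replicate 2. The study cites earlier work for that list, and in it the histone variant gene H2afz stood at 0.33 and Mybl2 had the largest difference at 0.71. DESeq2 with the pairs called Mki67 and Mybl2, and edgeR called Mki67 without replicate 3 and with upper-quartile scaling.

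The study's own cell cycle genes followed this pattern by pair. Cdk1 had a log2 fold change of 0.34, Ccnb1 0.35, Ccnb2 0.46 and Ccna2 0.27, all with overlapping groups and edgeR adjusted p-values of 0.296 to 0.510. Ccnb1, a mitotic cyclin, had 65.7, 72.6 and 36.2 CPM in controls and 105, 52.7 and 64.2 CPM in cKO samples, lower in the cKO sample of pair 2 and higher in the others. Of 70 clustered histone genes 31 were tested, with a median of 0.30, no edgeR or DESeq2 call and 5 held. Only 2 passed an unadjusted p of 0.05, both higher. Hist3h2ba and Hist3h2a, the most abundant, were held at 0.10 and 0.19, and Hist1h2ad had the largest difference at 2.29 (edgeR adjusted p = 0.0809). Histone copies are near-identical and largely lack polyA tails, so their counts are uncertain in these libraries. Among 23 genes of the G1/S step Myc rose, Ccnd2 fell and 13 were held, among them Ccnd3, the main D cyclin of DP cells by level, at 0.09. E2f2 stood at 0.50 (edgeR adjusted p = 0.0528). Cdkn1a, which encodes the CDK inhibitor p21, had 1.11, 2.24 and 1.42 CPM in controls and 5.93, 2.94 and 3.93 CPM in cKO samples. The groups did not overlap, and the log2 difference of 1.41 (standard error 0.394, adjusted p = 0.132 by edgeR) was not called, although DESeq2 without the pairs called it. Of the other CDK inhibitors, Cdkn1b was held at -0.19 and Cdkn2d at -0.08.

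Factors of polymerase II pausing, elongation, termination and 3-prime end cleavage were mostly stable at the mRNA level. Subunits of the polymerase itself are not in these lists. Of 31 genes of polymerase II pausing and elongation 30 were held, with a median of 0.00, and of 33 genes of termination and 3-prime end cleavage 32 were held, with a median of 0.04. No gene of either list was called by edgeR or DESeq2, and 1 and 3 of them passed an unadjusted p of 0.05. Supt5, the large DSIF subunit, had 383, 463 and 512 CPM in controls and 396, 466 and 520 CPM in cKO samples. Samples of 1 number were close to each other and the groups overlapped, at a log2 fold change of 0.03 with a 95% interval from -0.15 to 0.20. Pabpn1 and Cpsf7 were held at 0.08 and 0.01. The exceptions were Nelfe at 0.35 and Zc3h4, a partner of WDR82 in limiting transcription outside genes, at 0.52. Zc3h4 had 257, 309 and 321 CPM in controls and 378, 415 and 478 CPM in cKO samples, with no overlap and an edgeR adjusted p of 0.0197, but its fold change was under 1.5.

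Most genes of the T cell receptor and its proximal signalling were held too. Of 11 receptor and coreceptor genes 10 were held and none was called by edgeR or DESeq2, and 3 were lower at an unadjusted p under 0.05. Cd8a had 2425, 2013 and 2020 CPM in controls and 1828, 1418 and 1489 CPM in cKO samples. Every cKO sample lay below every control sample, and the log2 fold change was -0.45 (standard error 0.08, edgeR adjusted p = 0.0336; 0.328 without the pairs), under 1.5-fold but not held. Cd8b1, the partner chain, was held at -0.10, Cd4 at 0.04 and Cd3e at -0.06. Among 34 proximal signalling genes 30 were held and none was called by edgeR or DESeq2, with 6 past an unadjusted p of 0.05. The kinase gene Lck was held at 0.10 and the adaptor gene Lat at 0.27, and the 4 genes not held were the calcium channel gene Orai1 at -0.55, Txk at -0.51, Malt1 at -0.33 and Ubash3b at -0.15.

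Most factors that set thymocyte identity were held. Of 28 listed transcription factors 26 were held, and the other 2 were Zbtb7b and Egr1, which fell. At an unadjusted p under 0.05, 3 of the 28 were higher (8.27% of all genes) and 6 lower (8.36%). Tcf7 had 5609, 6753 and 6991 CPM in controls and 5739, 6304 and 7392 CPM in cKO samples, with a log2 fold change of 0.00 and a 95% interval from -0.19 to 0.20. The groups overlapped fully. Ets1 was held at 0.06. Of 17 V(D)J recombination genes 13 were held and none was called by edgeR or DESeq2, with 4 past an unadjusted p of 0.05. Rag1 was held at -0.24 and Dntt, the terminal transferase, at 0.08, and Xrcc4 had the largest difference at -0.42. Of 31 cohesin, CTCF and remodeller genes 30 were held, among them Hdac7 at 0.12 and Chd4 at 0.11, and Dnmt1 stood at 0.36. Some of the other genes the study named were Rmnd5a, held at -0.35, Dapk3 at -0.25, Rabif at -0.22, Pknox1 at 0.11 and Csrp1 at 0.01, all held. The study also named Casc1, Tspoap1, Ntrk3, Sh2d5 and Tmem39b, which rose. Of these Sh2d5, at 1.6, and Tmem39b, at 0.72, were not called by edgeR without the pairs and are named here after their values were seen.

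Genes of general cell maintenance were mostly held. This was so for 72 of 77 cytosolic ribosomal protein genes, 76 of 84 oxidative phosphorylation genes, 36 of 37 proteasome genes, 34 of 38 SR protein and snRNP genes and all 15 housekeeping genes, with medians of 0.16, 0.07, 0.07, 0.06 and 0.09. None of these genes was called by edgeR or by DESeq2 with or without the pairs. Ribosomal protein genes lay above 0 in 76 of 77 cases, 27 of them at an unadjusted p under 0.05 (8.27% of all genes were higher), and their median was 0.13, 0.09 and 0.30 in pairs 1 to 3 and between 0.15 and 0.17 under the other scalings. Rpl28 was held at 0.30 and Rplp0 at 0.25, and Rpl34 had the largest difference at 0.68. Many ribosomal protein genes have processed copies in the genome, so their counts are uncertain. Of the rest, the most abundant members were held: Atp5b (0.15) and Atp5a1 (0.17) of ATP synthase, Psmb8 (0.26) and Psmd8 (0.03) of the proteasome, Srsf5 (-0.07) and Srsf2 (0.06), and Eef1a1 (0.18) and Actb (-0.17). The largest differences in these lists were 0.35 for Cox8a, 0.34 for Psmb9 and -0.44 for Srsf12, with overlapping groups in each.

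Metabolic and stress lists held few calls. Of 17 glycolysis genes 13 were held and Eno3 alone was called, with Gapdh at 0.15 and Ldhb at -0.21, and of 26 genes of cholesterol synthesis and efflux 18 were held, with Srebf2 at 0.24 and Abcg1 at -0.33. Of 13 glucose and amino acid transporters 11 were held. Slc38a2 stood at -0.16, Slc1a5 at 0.05 and Slc2a3 at -0.48. The 13 heat shock genes and 18 genes of the unfolded protein and amino acid response had medians of -0.09 and -0.11, of which the first lay above 0 without replicate 2. Hspa8, Hsp90ab1 and Atf4 were held at -0.15, -0.12 and -0.16, and Hspa5 stood at -0.39, Hspa1b at -0.68 and Atf6 at -0.55. Among 31 interferon response genes Trim30a and Samhd1 fell and 11 were held, with Irf1 at -0.30. Of 19 genes of MHC class I presentation 14 were held, B2m at -0.32 among them, and H2-Q6 stood at -0.58 with overlapping groups. Neither the transporters, the 2 stress lists nor the MHC class I list held a gene called by edgeR or DESeq2, with 2, 1, 6 and 5 genes past an unadjusted p of 0.05, beside 16.6% of all genes.

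**Figure D4:**
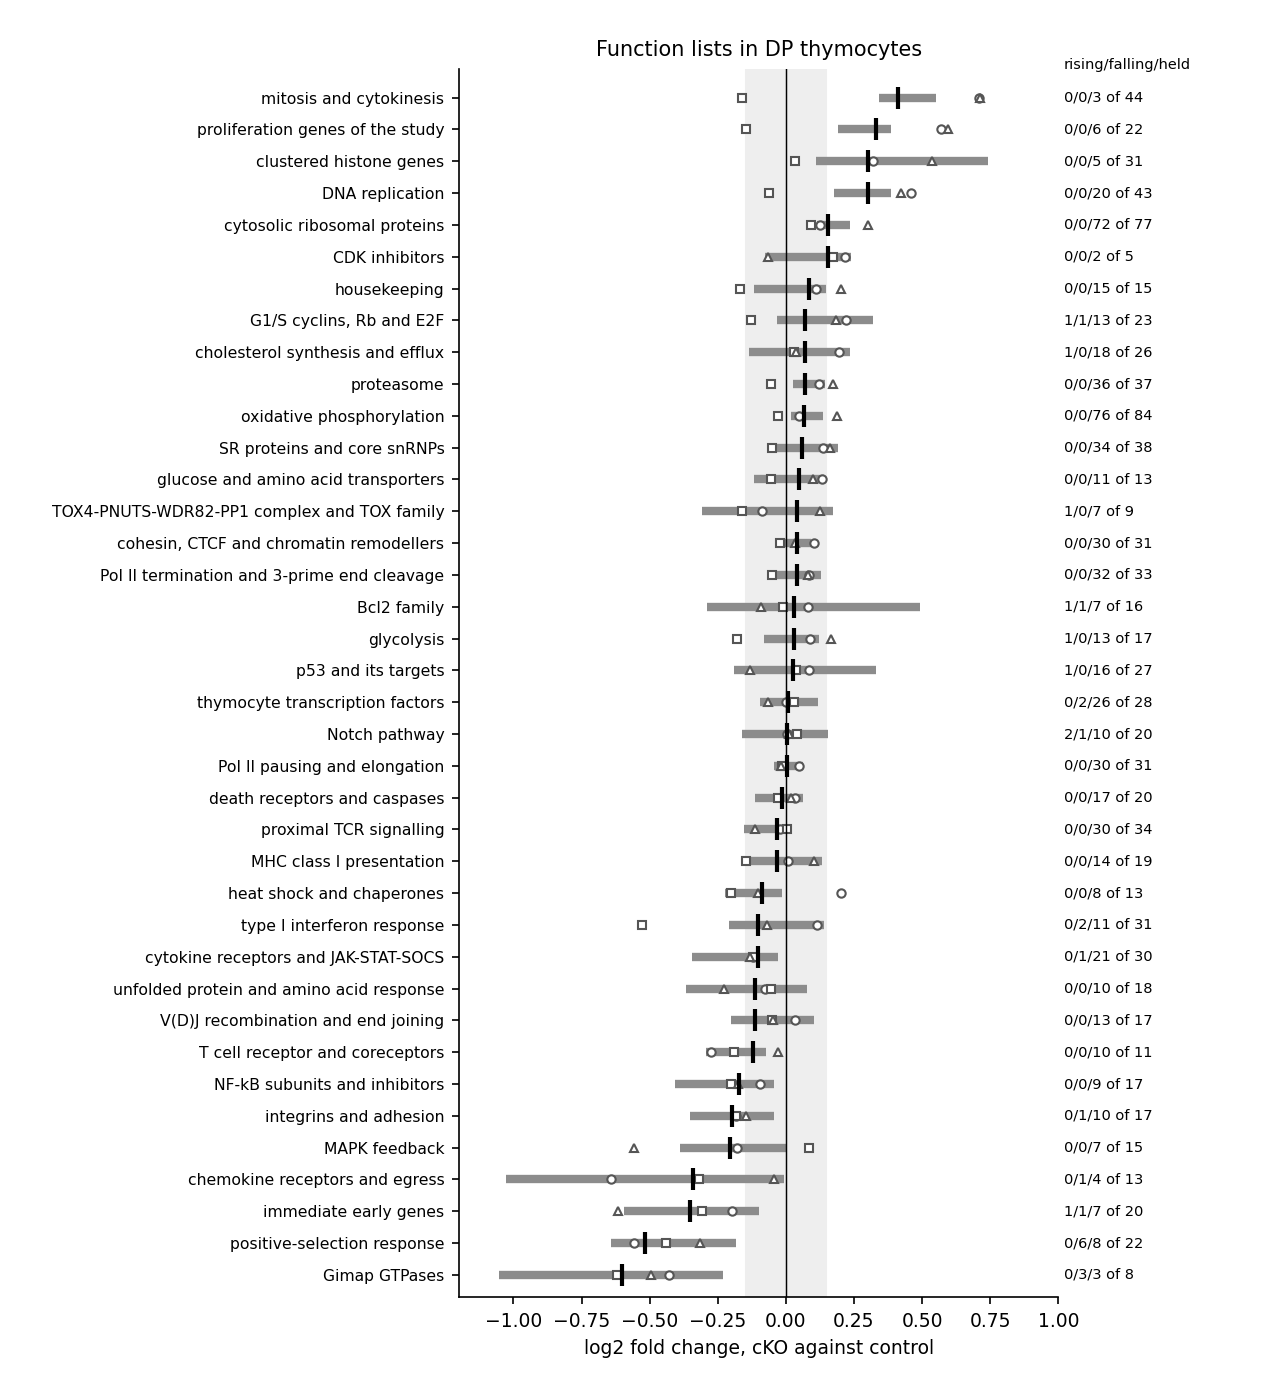
Log2 fold changes (horizontal axis, cKO against control) of 38 lists of genes by function. Black bars are list medians, grey bars run from the lower to the upper quartile, open symbols are medians within pair 1 (circle), 2 (square) and 3 (triangle), the shaded band spans the quartiles of all genes tested, and the numbers give genes rising, falling and held of those tested. Positive-selection and Gimap genes lie lowest, with medians of -0.52 and -0.60, and for mitosis the square of pair 2 lies below 0.

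The change in DP cells was set against that in CD8 thymocytes of the same series, from 5 cKO and 5 control samples with 8514135 to 13530783 counts each. CD8 cKO samples are labelled Tox4;F/F;Lck-cre and the controls Tox4;F/F. The difference between the 2 changes was tested as an interaction in edgeR over 12131 genes with the 8 same-numbered pairs as blocks, and 33 genes passed, 0.272% of those tested. Of the 57 genes that fell in DP cells 22 were among them, each with the lower change in DP cells, and of the 74 that rose in DP cells 2 were. The number that passed was 5 without DP replicate 1, 21 without DP replicate 2, 54 without DP replicate 3 and 13 without the pairs.

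Falling genes were mostly genes with higher levels in CD8 cells. Their median TPM was 23.6 in DP controls and 85.9 in CD8 controls, and 42 of the 57 were higher in CD8 controls, beside 49.8% of all genes tested. Their median log2 change was -0.81 in DP cells and -0.14 in CD8 cells. These genes were chosen for their fall in DP cells, which by itself puts the DP median further from 0 and favours a lower DP change where the 2 differ. Cd53 fell by 1.09 in DP cells and stood at 0.05 in CD8 cells, a difference of -1.14 (standard error 0.116, edgeR adjusted p = 0.000665). Il7r differed by -1.15, Nr4a3 by -0.96, Nr4a1 by -0.93 and Bcl2 by -0.78, and in each of these the fitted change in CD8 cells was above 0. Gimap3 and Gimap4 had changes of -0.44 and -0.51 in CD8 cells, smaller than in DP cells by 1.43 and 1.31. Of the other genes of the positive-selection list called in DP cells, Cd69, Egr1, Itm2a and Nab2 did not pass the test of the difference.

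Rising genes had changes of the same sign in both cell types in 64 of 74 cases, 86.5%, beside 39 of 57 falling genes, 68.4%, and 52.6% of all genes tested, with a median of 0.95 in DP cells, where they were chosen, and 0.48 in CD8 cells. The 2 that differed were Myc, whose change in CD8 cells was -0.11, lower than in DP cells by 1.09, and the potassium channel gene Kcna2, named after its values were seen, at -0.37 in CD8 cells. Tspoap1 and Fbxl22 stood at 2.94 and 1.73 in CD8 cells, and their changes were not shown to differ between the cell types.

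**Figure D5:**
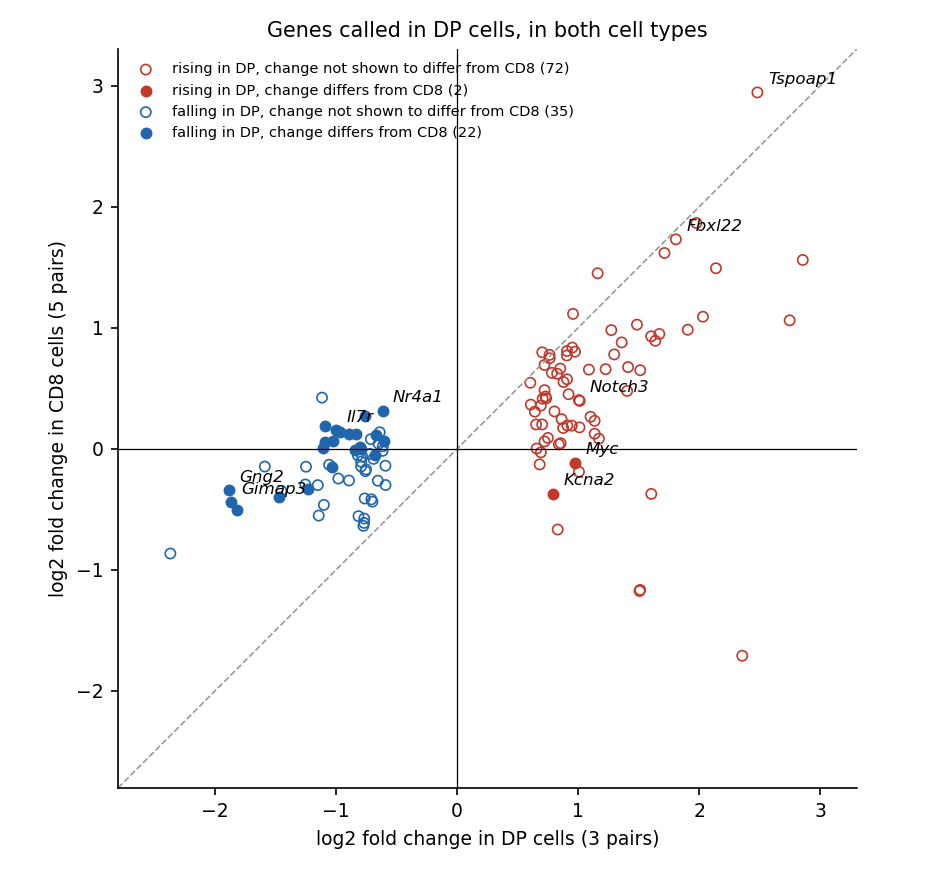
Log2 fold change in CD8 cells (vertical axis, 5 pairs) against that in DP cells (horizontal axis, 3 pairs) for the 131 genes called in DP cells. Filled points are the 22 falling and 2 rising genes whose change differs between the cell types by the interaction test, and the dashed line marks equal changes. Falling genes lie near 0 in CD8 cells, with a median of -0.14, and most rising genes lie above 0, with a median of 0.48.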

How the data were processed

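Fragments per gene had been counted before deposition: the authors deposited counts without normalization, made with fastp 0.13.1, HISAT2 2.1.0 and featureCounts 1.6.1 per the submitters' notes, strand-specifically on mm10. Counts of the 6 DP columns were fitted in R 4.3.3 with edgeR 4.0.16 (quasi-likelihood F test, TMM, filterByExpr, replicate number as a block, Benjamini-Hochberg adjustment over all 11748 genes tested). CPM, TPM, standard errors and 95% intervals come from these counts and this fit, as do all adjusted p-values unless DESeq2 1.42.0 is named. Pair ratios used a pseudocount of 0.5 CPM. The test was tried on simulated counts with known changes before use. No set test was run, and lists are described by counts and medians beside those of all genes.

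The pairing comes from the replicate numbers. Across genes, how far a sample lay from the mean of its group correlated within numbers 1 to 3 at 0.708, 0.0803 and 0.350 (mean 0.380, against -0.181 for other numbers, of which the highest was 0.367), so the data do not show that number 2 marks a pair, and results without the pairs stand beside those with them.

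Genes named are Tox4, the 12 largest rises and 12 largest falls, every called list member, the 2 most abundant genes and the largest change of each list, and 13 genes of the study, apart from a few genes and 1 list that are left out; others are marked or shown as counterexamples chosen after their values were seen. The thresholds are the study's. The comparison, the members of the 52 lists and the pairing were chosen with earlier results of these data known. Alternatives were other scalings, filters and thresholds, DESeq2, no block, and each pair left out. Counts carry no molecular identifiers, so precision by depth covers counting error only. Figures used Python 3.11.15, pandas 2.3.3 and matplotlib 3.10.9.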

Additional observations from a re-analysis of the deposited data

Results flagged for a closer look

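For 15 genes that were called in DP cells and named by the rule fixed for naming, the change between cKO and control samples differed between DP and CD8 thymocytes by the edgeR test of the interaction over all genes, at an adjusted p under 0.05. The DP change was the lower one for 14 genes, by a log2 difference of -1.54 for Gng2, -1.43 for Gimap3, -1.31 for Gimap4, -1.15 for Il7r, -1.14 for Cd53, -1.11 for Ccnd2, -1.09 for Rhof, -1.07 for Slfn1, -1.02 for Samhd1, -0.96 for Nr4a3, -0.93 for Nr4a1, -0.90 for Pea15a, -0.88 for Ccr7 and -0.78 for Bcl2. It was the higher one for Myc, by 1.09. Genes named after their values were seen, such as Bach2 and Kcna2, and genes not called in DP cells, such as Il6ra and Il2rb, also differed and are not counted here. All 14 had a higher TPM in control CD8 cells than in control DP cells, and so did Myc. Whether sorting, depth or the cell types themselves have a part in these differences was not tested.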

How the results depend on the processing

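The numbers of called genes moved by over 1.5 times with several choices, beside 74 DP genes rising and 57 DP genes falling. Without the replicate block edgeR called 10 and 7. DESeq2 with the replicate block called 121 and 97, no filter on low counts gave 223 and 161, and a test against a fold change of 1.5 gave 1 and 0. With 1 pair left out, 11 to 419 genes rose and 4 to 180 fell, lowest without replicate 1 and highest without replicate 2. RLE and upper-quartile scaling, DESeq2 without the block, a minimum of 10 counts, a robust prior, no TPM minimum and no fold change minimum gave 64 to 92 rising and 45 to 68 falling. The number of DP genes held within 1.5-fold stayed between 5547 and 7987, and with bounds of 1.2-fold it was 1087, which a narrower bound must lower. The number of genes that differ between DP and CD8 cells, 33, was 13 without the replicate block and 5 to 54 with 1 DP pair left out, and 29 without CD8 replicate 1, a choice made after seeing the data, of which 25 were shared. Upstream neighbours within 5 kb were found for 36.5% of rising, 7.02% of falling and 11.8% of all genes, and within 20 kb for 27.4% of all genes, as a shorter or longer distance must give. The rule fixed for naming gave 50 called genes, which leaves out those named after their values were seen. Of the 50, 13 kept the call without the replicate block, 50 with DESeq2 and the block and 40 with DESeq2 and no block. With RLE scaling 50 kept it and with upper-quartile scaling 48. It was kept by 11 without replicate 1, 47 without replicate 2 and 36 without replicate 3. None changed sign, which was all but fixed in advance, since all moved the same way in all 3 pairs. Apart from the distance and the bounds, the cause was not tested. Genes of low level were the least precise: 14.0% of those with a mean TPM of 1 to 10 had an interval within 1.5-fold. The part of depth in this was not tested.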
